A study of Mus musculus with 10 samples.

Results

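Heat shock proteins are molecular chaperones, the proteins that help others fold, refold or reach a degradation pathway. The transcripts of 10 chaperone genes were described in macrophages grown from the marrow of Rac2-/- and wild type (WT) mice. They were the HSP70 genes Hspa1a, Hspa1b and Hspa8, the HSP110 genes Hspa4 and Hsph1, the HSP90 genes Hsp90aa1 and Hsp90ab1, the J-domain gene Dnajb1, the small heat shock gene Hspb1 and the mitochondrial chaperonin gene Hspd1. These genes were picked by symbol. A gene was read from the array feature, the set of probes summarized as 1 value, that the platform annotation pairs with its symbol alone, and from the feature with the highest mean over 10 arrays where there were several. Of the 10 genes, 8 had such a feature, with 14 features between them out of 34760 on the array, and all 14 passed the filter on low values. Hspa1b was listed only on a feature shared with Hspa1a, and Hsp90ab1 was on none, so it was not analysed here.

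The samples were 5 arrays of bone marrow derived macrophages (BMDMs) from male C57BL mice that lack Rac2, and 5 arrays of BMDMs from male C57BL mice with Rac2 intact, which the methods describe as normal littermates and whose background they give as C57BL/6J. Rac2 is a GTPase of blood cells that acts downstream of integrins and growth factor receptors, and the deletion was present in the whole animal and not in macrophages alone. Both groups were cultured in 20% serum at 16% oxygen for 8 days, of which 7 were with 50 ng/ml of M-CSF, the growth factor that drives marrow cells to become macrophages. There was no other treatment, and the sources do not state the ages of the mice. The labels describe the cultures as over 80% positive for the myeloid antigen Mac1, so a minority of other cells could contribute RNA. The series speaks of 5 mice of each genotype, and whether each array held a different mouse is not spelled out, so a p-value reflects array-to-array spread, part of which may be technical.

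Values are log2 signals, on which a difference of 1 is a doubling, and each difference is Rac2-/- minus WT. Adjusted p-values come from limma with Benjamini-Hochberg adjustment over all features tested, and a feature was called when its adjusted p was under 0.05. Rac2 averaged 7.10 ± 0.29 in Rac2-/- BMDMs and 12.10 ± 0.27 in WT BMDMs (SD, n = 5 each), in keeping with the genotype labels. Macrophage markers were high in all 10 cultures, with a mean over 11 genes of 12.03 to 12.22 in Rac2-/- arrays and 11.95 to 12.12 in WT arrays. Arrays numbered 1 and 2 stood apart from arrays numbered 3 to 5 in both groups, with correlations of 0.974 to 0.996 within these sets and 0.934 to 0.955 between them. No label names a batch. The fit was therefore also run with the replicate number as a block, which compares arrays of the same number. In their deviations from the group means, same-numbered arrays were about as alike as other arrays of their set. Over all features 1.9% were called in the fit without the block and 6.35% with it.

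Most chaperones of this kind are made in every cell, and their production rises within minutes of heat, oxidants or other insults that unfold proteins. The rise is driven by heat shock factor 1 (HSF1), which binds promoters at repeated GAA units in alternating orientation. HSP70 proteins grip exposed hydrophobic stretches of a client, J-domain proteins bring the client and trigger ATP hydrolysis, HSP110 proteins release the nucleotide, and HSP90 takes over clients such as kinases and receptors late in folding. Macrophages also depend on chaperones when they ingest and digest particles.

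Among the 8 genes measured, Hspa1a was lower in Rac2-/- BMDMs and no other gene passed the test without the block. With the block Hsph1 was lower as well. The count of 1 of 8 called lower stood against 1.11% of all features called lower, and the count of 2 of 8 with the block against 3.03%. Means were lower in Rac2-/- BMDMs for 6 of the 8 genes and higher for Hspa8 and Hspa4. The direction of Hspa8 depended on the feature. Its own features differed by 0.09 (the feature read), 0.12 and -0.12, and those shared with other genes by -0.16 and -0.09. The median difference over the 8 genes was -0.13, with a range of -0.55 to 0.11, and the median over all features tested was -0.00034. In a bulk culture, fewer cells of a type and less RNA per cell cannot be told apart.

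**Figure D1:**
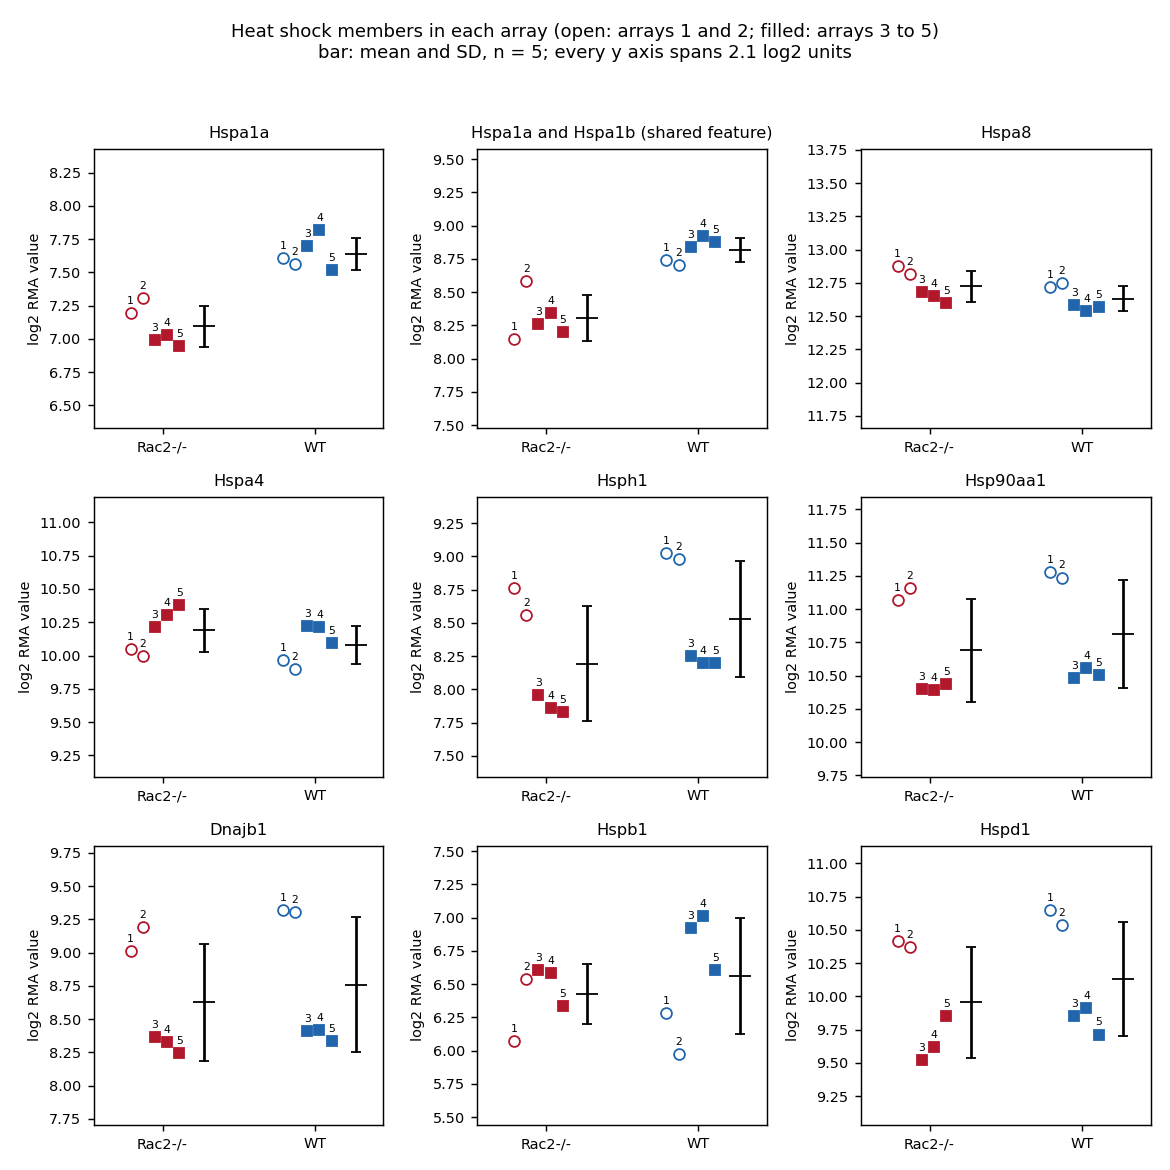
Log2 RMA value (y axis) of the measured heat shock genes in each array, Rac2-/- on the left (red) and WT on the right (blue), with array numbers 1 to 5 beside the points, open circles for arrays 1 and 2, filled squares for arrays 3 to 5, and the mean and SD (n = 5) beside each group. Every y axis spans the same width, so the gap of 0.55 for Hspa1a can be set against the shift of 0.70 to 0.93 between array sets for Hsph1, Hsp90aa1, Dnajb1 and Hspd1.

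Hspa1a and Hspa1b encode the stress-inducible HSP70, the classical product of the heat shock response, and lie side by side on mouse chromosome 17. Hspa1a was at 7.20, 7.31, 6.99, 7.03 and 6.95 in Rac2-/- arrays 1 to 5, against 7.61, 7.56, 7.70, 7.82 and 7.51 in WT arrays 1 to 5. Every Rac2-/- array was below every WT array, and among the 8 genes Hspa1a alone separated the groups this way. Of all features tested, 2.34% had all Rac2-/- arrays below all WT arrays.

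The means were 7.09 ± 0.15 in Rac2-/- BMDMs and 7.64 ± 0.12 in WT BMDMs (SD, n = 5 each). The difference was -0.55 (SE 0.10, 95% interval -0.76 to -0.33, adjusted p = 0.0189, and 0.0217 with the replicate block), a level 1.46-fold lower in Rac2-/- BMDMs. An exact two-sided permutation test over the arrays gave p = 0.00794, the smallest that 5 arrays against 5 allow. Within arrays 1 and 2 the difference was -0.33, and within arrays 3 to 5 it was -0.69, with no overlap in either set. Whether these differ was not tested. The call held in 6 of the 10 fits that left out 1 array and missed the threshold without Rac2-/- array 3 (adjusted p = 0.0563), Rac2-/- array 4 (0.0623), WT array 3 (0.0633) or WT array 4 (0.0578). In the fit with the block it also missed the threshold when both arrays of number 3, 4 or 5 were left out.

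The feature that Hspa1a shares with Hspa1b gave 8.14, 8.59, 8.26, 8.34 and 8.20 in Rac2-/- arrays 1 to 5, against 8.74, 8.71, 8.84, 8.92 and 8.88 in WT arrays 1 to 5. Here too all Rac2-/- arrays lay below all WT arrays, by -0.51 on average (SE 0.10, adjusted p = 0.0261, and 0.0274 with the block). It passed in 4 of the 10 fits that left out 1 array and missed the threshold without Rac2-/- array 3 (adjusted p = 0.0736), 4 (0.0679) or 5 (0.0587), or WT array 3 (0.0801), 4 (0.0807) or 5 (0.0780). Transcripts of the gene pair are so alike that this feature does not say which of them it measured.

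Because the shared feature does not separate the pair and Hspa1b has none of its own, the 250 bases before each start site are shown to let their control regions be compared, from RefSeq on GRCm38.p6. Hspa1a lies on the minus strand, with the window at chr17:34972157-34972406, and Hspa1b on the same strand, with the window at chr17:34959239-34959488. Capitals mark GAANNTTC, one arrangement of 2 facing GAA units.
Hspa1a: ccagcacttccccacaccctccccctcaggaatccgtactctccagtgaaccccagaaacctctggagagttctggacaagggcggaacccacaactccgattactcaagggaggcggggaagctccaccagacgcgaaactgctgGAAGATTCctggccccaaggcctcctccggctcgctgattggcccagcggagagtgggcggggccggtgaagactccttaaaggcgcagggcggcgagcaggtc
Hspa1b: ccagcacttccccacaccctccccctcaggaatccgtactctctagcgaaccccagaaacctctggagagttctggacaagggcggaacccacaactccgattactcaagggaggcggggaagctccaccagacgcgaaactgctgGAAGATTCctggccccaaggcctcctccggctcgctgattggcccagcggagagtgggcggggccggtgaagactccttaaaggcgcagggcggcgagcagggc
The windows were identical at 247 of 250 bases. The 3 differences were C44T, T47C and T249G, with the base of Hspa1a first and positions counted from 1 at the 5′ end. In both windows the marked pair ended 96 bases before the start site.

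The same search covered GAANNTTC and TTCNNGAA, each of which reads the same on both strands, in 32851 windows of 250 bases before the start sites of 27025 genes. Either pair occurred in 12.8% of the windows. The chained triple (TTCNNGAANNTTC or GAANNTTCNNGAA, which are each other's reverse complement and contain both pairs) occurred in 0.466%. Windows were given for 7 of the 10 heat shock genes, and 5 of the 7 held a pair, namely Hspa1a, Hspa1b, Hspb1, Hspd1 and Hsph1, while Hspa4 and Dnajb1 held none. Only Hspd1 held a triple. A match is a description of the letters, and binding was not measured. The 30 bases around 1 match of the other 3 genes are shown to set their arrangements beside that of the Hspa1 genes, Hspb1 at chr5:135887791-135887820 on the plus strand, Hspd1 at chr1:55088053-55088082 on the minus strand and Hsph1 at chr5:149636351-149636380 on the minus strand, with the matches in capitals.
Hspb1: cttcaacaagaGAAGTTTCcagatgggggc
Hspd1: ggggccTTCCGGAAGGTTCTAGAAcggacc
Hsph1: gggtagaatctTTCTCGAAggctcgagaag

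Hspa8 encodes Hsc70, the constitutive HSP70, which also uncoats clathrin vesicles and carries proteins to the lysosome in chaperone-mediated autophagy. It was at 12.88, 12.82, 12.68, 12.65 and 12.60 in Rac2-/- arrays 1 to 5, against 12.72, 12.75, 12.59, 12.54 and 12.57 in WT arrays 1 to 5. The Rac2-/- arrays lay above the WT arrays within each array set, and the groups overlapped over all 10. The difference was 0.09 (SE 0.08, 95% interval -0.09 to 0.28, adjusted p = 0.913). Of its other features, 1 differed by 0.12 and 1 by -0.12. The feature read, minus the one that was lower, gave 0.17 in Rac2-/- BMDMs and -0.05 in WT BMDMs, a difference of 0.21 (two-sided exact permutation p = 0.0397, and 0.238 after Benjamini-Hochberg adjustment over the 6 pairs of features compared). A further 2 features shared with the small nucleolar RNA genes Snord14c and Snord14d, which lie within Hspa8, had differences of -0.16 and -0.09, with adjusted p = 0.999 for each.

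HSP110 proteins are large relatives of HSP70 that act as its nucleotide exchange factors. Hsph1, which is heat-inducible, was at 8.76, 8.56, 7.96, 7.86 and 7.83 in Rac2-/- arrays 1 to 5, against 9.03, 8.98, 8.25, 8.20 and 8.20 in WT arrays 1 to 5. The groups overlapped over all arrays, and within each array set every Rac2-/- array was below every WT array. The difference was -0.34 in all arrays, -0.35 within arrays 1 and 2, and -0.33 within arrays 3 to 5.

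For Hsph1 the fit decided the call. Without the block the standard error was 0.25 (adjusted p = 0.848), and with the block it was 0.06 (95% interval -0.47 to -0.20, adjusted p = 0.0216). Left without both arrays of 1 number, the blocked fit gave adjusted p = 0.0295 without number 1, 0.0653 without number 2, 0.0929 without number 3, 0.106 without number 4 and 0.0567 without number 5. Hspa4, the constitutive HSP110 gene, was at 10.05, 9.997, 10.21, 10.30 and 10.38 in Rac2-/- arrays 1 to 5, against 9.97, 9.90, 10.22, 10.22 and 10.09 in WT arrays 1 to 5. The groups overlapped, with a difference of 0.11 (SE 0.10, 95% interval -0.12 to 0.34, adjusted p = 0.936).

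Hsp90aa1 encodes the inducible cytosolic HSP90. It was at 11.07, 11.16, 10.40, 10.39 and 10.44 in Rac2-/- arrays 1 to 5, against 11.28, 11.24, 10.48, 10.55 and 10.51 in WT arrays 1 to 5. Within each array set the Rac2-/- arrays were below the WT arrays by a small margin, and over all arrays the groups overlapped. The difference was -0.12 (SE 0.23, adjusted p = 0.999, and 0.282 with the block, whose 95% interval was -0.26 to 0.01). Its other features differed by -0.02 and -0.17.

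Dnajb1 encodes the main heat-inducible J-domain partner of HSP70. It was at 9.01, 9.19, 8.36, 8.33 and 8.25 in Rac2-/- arrays 1 to 5, against 9.32, 9.31, 8.41, 8.42 and 8.34 in WT arrays 1 to 5. The groups overlapped in arrays 3 to 5, and the gap between array sets was far wider than that between genotypes. The difference was -0.13 (SE 0.27, adjusted p = 0.999, and 0.298 with the block, whose 95% interval was -0.28 to 0.02).

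Hspb1 encodes the small heat shock protein HSP27 (HSP25 in mice), which holds unfolded proteins without using ATP. It was at 6.07, 6.54, 6.60, 6.58 and 6.34 in Rac2-/- arrays 1 to 5, against 6.29, 5.98, 6.92, 7.01 and 6.61 in WT arrays 1 to 5. In arrays 3 to 5 the Rac2-/- values were all below the WT values, and in arrays 1 and 2 they overlapped. The difference of -0.13 over all arrays (SE 0.20, adjusted p = 0.999, and 0.670 with the block) was made of 0.17 in arrays 1 and 2 and -0.34 in arrays 3 to 5. Its other feature differed by 0.02.

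Hspd1 encodes HSP60, the chaperonin that folds proteins imported into mitochondria. It was at 10.41, 10.37, 9.52, 9.62 and 9.85 in Rac2-/- arrays 1 to 5, against 10.65, 10.53, 9.85, 9.91 and 9.71 in WT arrays 1 to 5. In arrays 3 to 5 of this feature the groups overlapped, and number 5 was the only one whose Rac2-/- array was above its WT counterpart. The difference was -0.18 (SE 0.24, adjusted p = 0.996, and 0.287 with the block), and its other feature differed by -0.25 (adjusted p = 0.922).

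**Figure D2:**
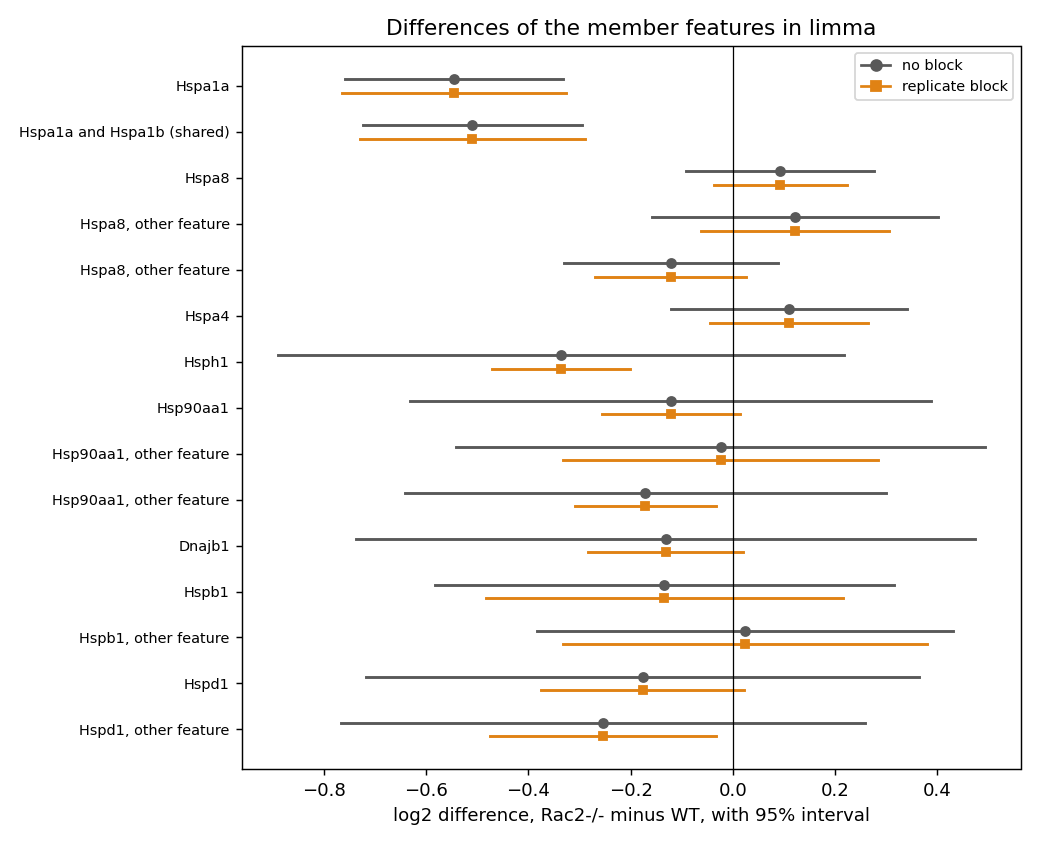
Log2 difference, Rac2-/- minus WT (x axis), with the 95% interval for each feature of the heat shock genes, in the fit without a block (grey circles) and with the replicate number as a block (orange squares). The intervals of Hspa1a and of the feature it shares with Hspa1b lie below 0 in both fits, and that of Hsph1 narrows to -0.47 to -0.20 with the block.

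Apart from Hspa1a, the heat shock genes differed more between the array sets than between the genotypes. In 5 of the 8 genes arrays 1 and 2 averaged higher than arrays 3 to 5 in both groups, in Hspa4 and Hspb1 they averaged lower in both, and in Hspa1a the sets differed by 0.26 in Rac2-/- BMDMs and by -0.09 in WT BMDMs. Hsph1 was 0.77 higher in arrays 1 and 2 of Rac2-/- BMDMs and 0.79 higher in those of WT BMDMs. The gap was 0.70 in Rac2-/- BMDMs and 0.74 in WT BMDMs for Hsp90aa1.

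For Dnajb1 it was 0.79 in Rac2-/- BMDMs and 0.93 in WT BMDMs, and for Hspd1 0.73 in Rac2-/- BMDMs and 0.77 in WT BMDMs. These 4 genes thus had a gap of at least 0.5 in both groups, as 9.35% of all features did. Hspb1 went the other way, with gaps of -0.20 in Rac2-/- BMDMs and -0.72 in WT BMDMs. Over the 8 genes the median gap was 0.45, and over all features it was -0.0055. The sources do not state how the array sets came about. In arrays 3 to 5 alone, 4 of the 8 genes (Hspa1a, Hsph1, Hsp90aa1 and Hspb1) had all Rac2-/- arrays below all WT arrays, against 13.2% of all features.

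**Figure D3:**
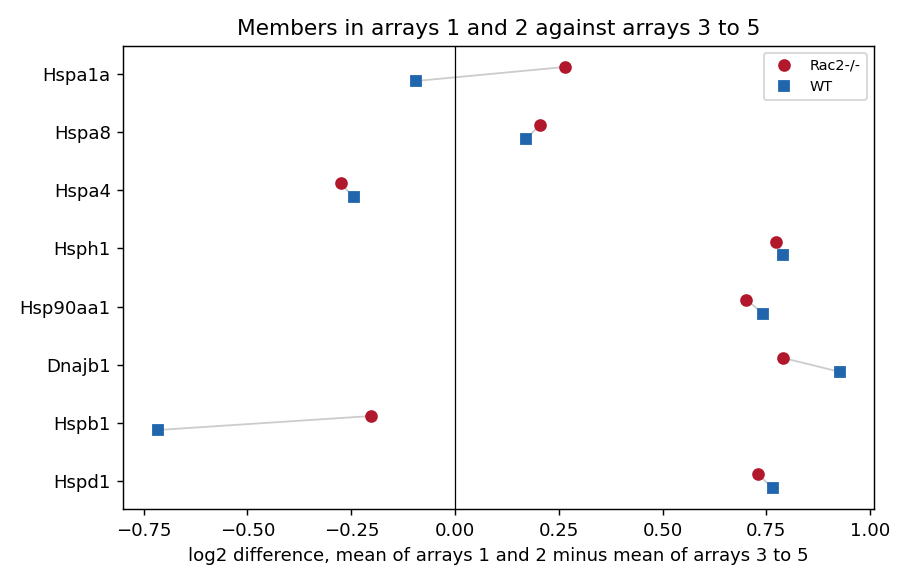
Mean of arrays 1 and 2 minus mean of arrays 3 to 5, in log2 units (x axis), for each heat shock gene in Rac2-/- (red circles) and WT (blue squares) BMDMs. Hsph1, Hsp90aa1, Dnajb1 and Hspd1 lie between 0.70 and 0.93 in both groups, and the points of Hspa1a lie on opposite sides of 0.

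Around these genes, 161 others were listed by role, chaperones and co-chaperones for the most part, with some regulators of protein stress (Ddit3, Atf4), proteases and other stress-induced genes (Hmox1), and 152 were tested. In the fit without the block 1 was higher in Rac2-/- BMDMs, Herpud1, and 1 was lower, Hspa1l, where 1.9% of all features were called in either direction. With the block 7 were higher and 5 lower, against 6.35% of all features, and Ddit3, Atf4 and Hmox1 were among these 12. Their median difference was 0.0090, with higher means in Rac2-/- BMDMs for 78 genes and lower means for 74.

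Hspa1l, a further HSP70 gene beside Hspa1a, is known for its expression in the testis. It was at 5.59, 5.83, 5.54, 5.68 and 5.43 in Rac2-/- arrays 1 to 5, against 6.29, 6.41, 6.68, 6.75 and 6.83 in WT arrays 1 to 5. All Rac2-/- arrays were below all WT arrays. The difference was -0.98 (SE 0.12, adjusted p = 0.00378, and 0.0109 with the block), with -0.64 within arrays 1 and 2 and -1.20 within arrays 3 to 5, and it passed in all 10 fits that left out 1 array. Its Rac2-/- values lay below the medians of the arrays (6.07 to 6.14), and a stricter filter on low values removed the gene. The other 9 genes of the HSP70 and HSP110 list, the endoplasmic reticulum HSP70 Hspa5 (0.09) and the mitochondrial HSP70 Hspa9 (-0.11) among them, were not called.

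Since Hspa1l and Hspa1a are neighbours, the next protein-coding genes on both sides were read after these values were known. Along the chromosome the order was Neu1, Hspa1b, Hspa1a, Hspa1l and Lsm2. None of the 11 neighbours outside the HSP70 genes was called with or without the block. Neu1, a lysosomal sialidase gene, differed by -0.07 and Lsm2, an RNA-binding splicing gene, by 0.13. The widest difference was that of the complement gene Cfb, -1.39 (SE 0.57, adjusted p = 0.410, and 0.0688 with the block).

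**Figure D4:**
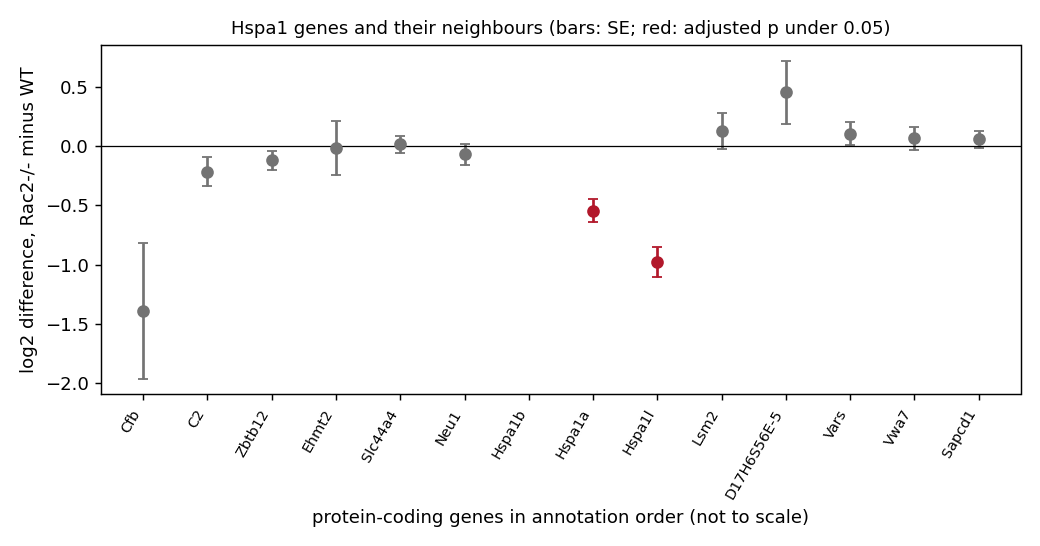
Log2 difference, Rac2-/- minus WT, with its SE (y axis) for protein-coding genes in their order along mouse chromosome 17 around the Hspa1 genes (x axis, not to scale). Hspa1a (-0.55) and Hspa1l (-0.98) are in red as called, the 11 neighbours in grey are not called, and Hspa1b has no feature of its own.

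Of the 45 J-domain genes tested, none was called without the block and 5 were with it, against 6.35% of all features. Dnajc28, which codes for a J-domain protein, had means of 6.99 in Rac2-/- BMDMs and 6.32 in WT BMDMs with no overlap, a difference of 0.67 (adjusted p = 0.0588, and 0.0110 with the block). Dnaja1, a cytosolic partner of HSP70, had means of 9.92 in Rac2-/- BMDMs and 10.28 in WT BMDMs, also with no overlap, a difference of -0.36 (adjusted p = 0.0770, 0.0480 with the block, and 0.0496 without Rac2-/- array 5). The others called with the block were Dnajb14 (0.61), Dnajc3 (0.55) and Sec63 (0.33), which serve the endoplasmic reticulum.

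Among 12 nucleotide exchange and release factors none was called in either fit. The smallest adjusted p-values without the block were those of Bag2 (0.23, adjusted p = 0.634) and Hspbp1 (-0.29, adjusted p = 0.826). Within each array set every Rac2-/- value of Hspbp1 was below every WT value, and its adjusted p with the block was 0.0802. Of 25 HSP90 co-chaperones and other HSP90 genes, Stip1, which holds HSP70 and HSP90 together, was called with the block and not without it. Its means were 9.99 in Rac2-/- BMDMs and 10.27 in WT BMDMs (difference -0.27, adjusted p = 0.225, and 0.0407 with the block). Pih1d1, a subunit of an HSP90 adaptor complex, differed by 0.16 (adjusted p = 0.491).

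No gene was called in either fit among 9 small heat shock genes, 17 mitochondrial chaperone and protease genes, 18 genes of the chaperonin TRiC and prefoldin, and 5 heat shock factors and regulators. Their median differences were -0.04, -0.02, -0.02 and 0.02 in that order. In these lists the genes with the smallest adjusted p were Cryab (0.31) and Hspb7 (-0.14), the mitochondrial protease subunit Afg3l2 (0.14) and the mitochondrial HSP90 Trap1 (0.20), the prefoldin subunit Pfdn6 (-0.21) and the TRiC subunit Cct2 (0.16), and Hsf2bp (-0.18) and the heat shock factor Hsf2 (0.13), with adjusted p from 0.365 to 0.932. Hsf1 had no feature tested under its symbol.

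The endoplasmic reticulum list held 25 tested genes, with 19 higher means in Rac2-/- BMDMs and a median difference of 0.15. Herpud1, which takes part in the disposal of misfolded proteins of that compartment, was at 10.93, 10.29, 10.29, 10.28 and 10.59 in Rac2-/- arrays 1 to 5, against 9.72, 9.80, 9.50, 9.51 and 9.70 in WT arrays 1 to 5. The groups did not overlap, and the difference was 0.83 (SE 0.14, adjusted p = 0.0136, and 0.00916 with the block), 1.78-fold higher in Rac2-/- BMDMs, with the call kept in all 10 fits that left out 1 array.

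With the block the disulphide isomerase gene Pdia4 (0.35, adjusted p = 0.0317) and Dnajc3 were higher too, and the stress transcription factor genes Ddit3 (-0.86, adjusted p = 0.0452) and Atf4 (-0.56, adjusted p = 0.0200) were lower. Without the block the adjusted p was 0.0644 for Pdia4, 0.627 for Dnajc3, 0.0588 for Ddit3 and 0.171 for Atf4. The list thus held genes called in both directions, 3 higher and 2 lower with the block, against 6.35% of all features.

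**Figure D5:**
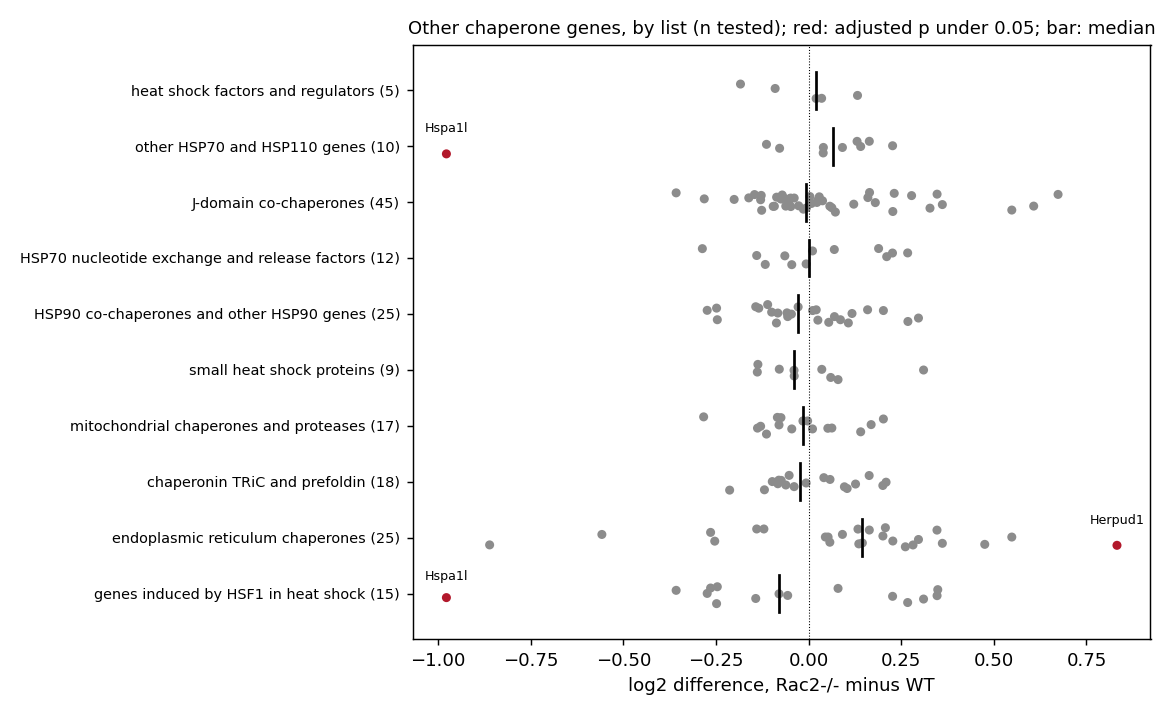
Log2 difference, Rac2-/- minus WT (x axis), of the other chaperone genes by list (rows, with the number tested), with a black bar at each median and red points for genes called without the block. Hspa1l (-0.98) and Herpud1 (0.83) are the red points, Ddit3 (-0.86), in grey, lies nearly as far from 0, and Hspa1l is drawn in each list that holds it.

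Apart from the 10 chosen genes, 15 genes of a list of HSF1 targets in heat shock were tested. Of these, 6 had higher and 9 lower means in Rac2-/- BMDMs, with a median of -0.08. Hspa1l, which is known more for the testis than for induction by heat, was the only one called without the block. With the block Dnaja1 and Stip1 were lower as well and Hmox1, the heme oxygenase gene, was higher (0.35, adjusted p = 0.0210, and 0.0808 without the block). Genes of this list thus passed in both directions, 1 higher and 3 lower with the block, against 6.35% of all features. Bag3, an HSP70 co-chaperone strongly induced by heat, differed by 0.27 (adjusted p = 0.949).

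Immediate early genes respond to handling of cells within minutes, as heat shock genes do. Of 23 tested 1 was called without the block, against 1.9% of all features. It was Ier3, with means of 9.23 in Rac2-/- BMDMs and 8.52 in WT BMDMs (0.71, adjusted p = 0.0264). Its call held in 3 of the 10 fits that left out 1 array. It missed the threshold without Rac2-/- array 2 (adjusted p = 0.0675), 3 (0.0777) or 4 (0.0767), or WT array 1 (0.0602), 2 (0.0724), 4 (0.0506) or 5 (0.0783). Jun, a subunit of the transcription factor AP-1, differed by -0.65 (adjusted p = 0.0768, and 0.0132 with the block). The median of the 23 genes was -0.10.

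Over the 10 arrays, the genes whose centred log2 values lay closest to those of Hspa1a, out of 16875 compared, were Hdc (root mean square difference 0.11), Prpf4 (0.12), Psmb10 (0.12), Tmem229b (0.13) and Pcsk7 (0.13). Each of them was itself called lower in Rac2-/- BMDMs, with differences of -0.52 to -0.39. Hdc encodes histidine decarboxylase, which makes histamine. The gene with the largest SD over the arrays was Dnajb1 (0.45), and closest to it were Rrp15 (0.059), Tmem11 (0.061), Itpa (0.065), 2810004N23Rik (0.070) and Med10 (0.071). Closeness to Dnajb1 reflects the gap between array sets and closeness to Hspa1a the group difference, so no p is given for likeness.

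Markers of other cells and states were read beside these results. The 7 mast cell and basophil markers tested, of 11 listed, all had lower means in Rac2-/- BMDMs, and their mean level was 5.37 to 5.61 in Rac2-/- arrays, against 5.74 to 6.34 in WT arrays. These levels lay near or below the array medians of 6.07 to 6.14. The filter on low values kept features by their fourth-highest value, so a marker near its cutoff could pass through the WT arrays alone. The count of lower means and the mean levels are therefore not independent of the filter. Hdc, which is on that list, was called (-0.49, adjusted p = 0.0185), though not without Rac2-/- array 3 (0.0542), WT array 3 (0.0595) or WT array 4 (0.0615). Cpa3, a mast cell protease gene, averaged 4.14 in Rac2-/- BMDMs and 5.12 in WT BMDMs and was not called (adjusted p = 0.236). Its Rac2-/- mean was below 4.73, the cutoff of the filter on low values. The part of mast cells and basophils in the lower Hspa1a level was not tested.

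Genes of S phase and mitosis averaged 9.60 in Rac2-/- array 5, against at most 7.42 in the other Rac2-/- arrays and 6.86 to 7.37 in WT arrays. Without that array the difference of Hspa1a was -0.51 (adjusted p = 0.0411) and that of Hspa1l -0.93 (adjusted p = 0.00855). That of Hsph1 was -0.25 (adjusted p = 0.983), and it was -0.28 without Rac2-/- array 3 and -0.25 without Rac2-/- array 4. These arrays all belong to the array set with the lower Hsph1 values. The mean level of 11 neutrophil markers overlapped between the groups, at 6.58 to 8.21 in Rac2-/- arrays and 6.75 to 8.74 in WT arrays. Of these markers 8 had lower and 3 higher means in Rac2-/- BMDMs, with a median difference of -0.27, and 0 were called in either fit.

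Of 9 fibroblast and stroma markers, 7 had lower means in Rac2-/- BMDMs, with a median difference of -0.22 and a mean level of 6.40 to 7.03 in Rac2-/- arrays, against 6.86 to 7.29 in WT arrays. None was called without the block, and with it Dcn, Postn and Sparc were lower and Pdgfrb higher, against 6.35% of all features called. Of 7 dendritic cell markers, the integrin gene Itgax, which macrophages also express, was higher (1.95, adjusted p = 0.00424) and Ccr7 was lower (-0.91, adjusted p = 0.0141, and 0.0506 without WT array 3), and their mean level overlapped, at 6.06 to 6.35 in Rac2-/- arrays and 5.96 to 6.26 in WT arrays. Among the macrophage markers the mannose receptor gene Mrc1 (0.66, adjusted p = 0.00352) and the Fc receptor gene Fcgr3 (0.52, adjusted p = 0.0432) were higher, the Fcgr3 call holding in 2 of the 10 fits that left out 1 array and reaching an adjusted p of 0.116 without WT array 4. Of the 11 macrophage markers 7 had higher and 4 lower means in Rac2-/- BMDMs, with a median difference of 0.11 and a range of -0.74 to 0.66. With the block 3 of them were called higher and 1 lower. Without the block 1.9% of all features were called, and with it 6.35%. The part of these cells in the heat shock results was not tested.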

How the data were processed

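RNA of 10 BMDM cultures was hybridized by the authors to Affymetrix mouse 1.0 ST gene arrays, and the deposited values are log2 signals after RMA (background correction, quantile normalization and summary of the probes of a feature). The methods name a batch correction by ComBat, with batches that are not named, and the sources do not state whether it entered the deposited log2 values. The array medians were 6.07 to 6.14. Feature symbols came from the platform annotation: of 34760 features, 21640 had 1 symbol, 1321 several and 11799 none listed, and 21553 of the single-symbol features were matched by Entrez identifier. Depth does not apply to arrays, and their number limits the precision.

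Features were ranked by their fourth-highest value and the top 27031 kept, the number the methods state. limma 3.58.1 in R 4.3.3 (lmFit and eBayes) compared Rac2-/- with WT, with Benjamini-Hochberg adjustment over these features and a threshold of 0.05. The scripts were tested on simulated data. The heat shock genes and all lists were chosen with earlier results of these data known. Named genes were the chosen genes, Rac2, genes called in each list (up to 6) or the 2 with the smallest adjusted p, and the 5 genes most like Hspa1a and Dnajb1, and genes called with the block or lying beside the Hspa1 genes were named after their values were seen, as were the remaining genes given with values.

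Same-numbered arrays deviated together from their group means (correlations 0.493 to 0.716), as did differently numbered arrays of the same set (0.476 to 0.724), and 5 of 10 arrays matched their own number best. The labels do not say what a number marks, and the values showed the array sets but no closer match by number. The block therefore rests on the numbering alone. With a term for the array sets in its place, the adjusted p was 0.00409 for Hspa1a and 0.00615 for Hsph1. No 2 arrays were identical. Alternatives were other filters, the block, a term for the array sets, ComBat (an own implementation), each set alone, another variance model, array weights, renormalization, the mean of a gene's features and leaving out arrays. Promoter windows came from RefSeq (GRCm38.p6).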

Additional observations from a re-analysis of the deposited data

How the results depend on the processing

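The number of features called was 514 and was 1716 with the replicate block, 2524 with a term for the array sets, 4386 after ComBat, 1811 with array weights, 2 in arrays 1 and 2 alone, 1487 in arrays 3 to 5 alone and 245 to 625 with 1 array left out. Of the 8 heat shock genes 1 was called, against 2 with the replicate block, the set term, ComBat or arrays 3 to 5 alone, 0 in arrays 1 and 2 alone, and 0 to 1 with 1 array left out. Of the other chaperone genes 2 were called, against 12 with the replicate block, 18 with the set term, 35 after ComBat, 12 with array weights, 5 after quantile normalization, 0 in arrays 1 and 2 alone, 11 in arrays 3 to 5 alone and 2 to 4 with 1 array left out (4 without Rac2-/- array 5). Why these counts moved was not tested.

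With the replicate block and both arrays of 1 number left out, chosen after seeing the data, the count over all features was 1937 without number 1, 284 without number 3, 302 without number 4 and 1119 without number 5, and over the heat shock genes it was 0 to 2. Hspa1a then missed the threshold with a difference of -0.50 without number 3 (adjusted p = 0.0990), -0.48 without number 4 (0.0900) and -0.54 without number 5 (0.0600). The median of the heat shock genes stayed below 0 under every alternative run. Directions reversed for Hspb1 (0.17) and Hsf2 (-0.051) in arrays 1 and 2 alone, and for Dnajb1 without WT array 1 (0.0092) or WT array 2 (0.0059), in a range of -0.27 to 0.0092 with 1 array left out. Leaving out 1 array makes the array sets unequal between the groups. Within the sets Dnajb1 differed by -0.21 in arrays 1 and 2 and by -0.08 in arrays 3 to 5. Of single-gene values under the alternatives, 570 kept direction and side of the threshold, 29 newly passed it, 19 no longer did and 4 reversed. Hspa1l was removed by the stricter filter. Hspbp1, called neither with nor without the block, passed with the set term (adjusted p = 0.0284), after ComBat (0.00370) and in arrays 3 to 5 alone (0.0248). Apart from Hsph1, Dnajc28, Dnaja1, Stip1 and the genes called with the block in the report, the block changed no call of a gene named from the lists.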
